A study of Mus musculus with 3186 samples.

Results

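The cells compared here are fibroblasts and oligodendrocytes that were sorted from the same reporter mouse line onto the same plates. All came from the brain of adult C57BL/6 mice aged 12 to 15 weeks that carried Pdgfra-H2BGFP, a histone-bound green fluorescent protein under the control of the Pdgfra locus. Both groups therefore shared strain, age, reporter and organ, and no treatment is named. Single cells were sorted by fluorescence into 384-well plates and sequenced along the full transcript by Smart-seq2, which carries no molecular tags, so reads are not independent molecules. The line filled 2 plates, called Pdgfra1 and Pdgfra2. The wider study profiled blood vessel cells from 3 reporter lines.

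A cell was taken as a fibroblast when at least 2 of Col1a1, Col1a2, Dcn and Lum reached 50 CPM (counts per 1000000 reads). It was taken as an oligodendrocyte when fewer than 2 of those genes and at least 2 of Mog, Mag and Mobp did. This gave 235 of the line's 257 cells, out of 3186 cells in the series. The fibroblasts numbered 85, with 57 on plate Pdgfra1 and 28 on plate Pdgfra2. The oligodendrocytes numbered 150, with 33 and 117. The remaining 22 cells met neither rule and were left out.

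Brain fibroblasts lie in the meninges and along larger vessels, where they lay down collagen and other extracellular matrix and carry the receptor Pdgfra as adult cells. Oligodendrocytes wrap axons in myelin, a stack of lipid-rich membrane held together by a small set of abundant proteins. In that lineage Pdgfra is known as a receptor of the precursor and is shut off as the cell matures, while a histone-bound fluorescent protein can outlast the transcript that made it. Pdgfra read 271 and 269.7 CPM in the fibroblasts of plates Pdgfra1 and Pdgfra2 and 0.186 and 0.0184 CPM in the oligodendrocytes. The reporter transcript itself read 75.1 and 105 CPM in fibroblasts against 2.51 and 0.0369 CPM in oligodendrocytes.

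The 2 kinds of cell took very different shares of the plates. Fibroblasts made up 53.3% of the 107 cells on plate Pdgfra1 (exact binomial 95% interval 43.4 to 63.0) and 18.7% of the 150 cells on plate Pdgfra2 (12.8 to 25.8). Oligodendrocytes made up 30.8% (22.3 to 40.5) and 78.0% (70.5 to 84.3). The sort sets such shares, and they do not give the composition of the tissue.

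**Figure D1:**
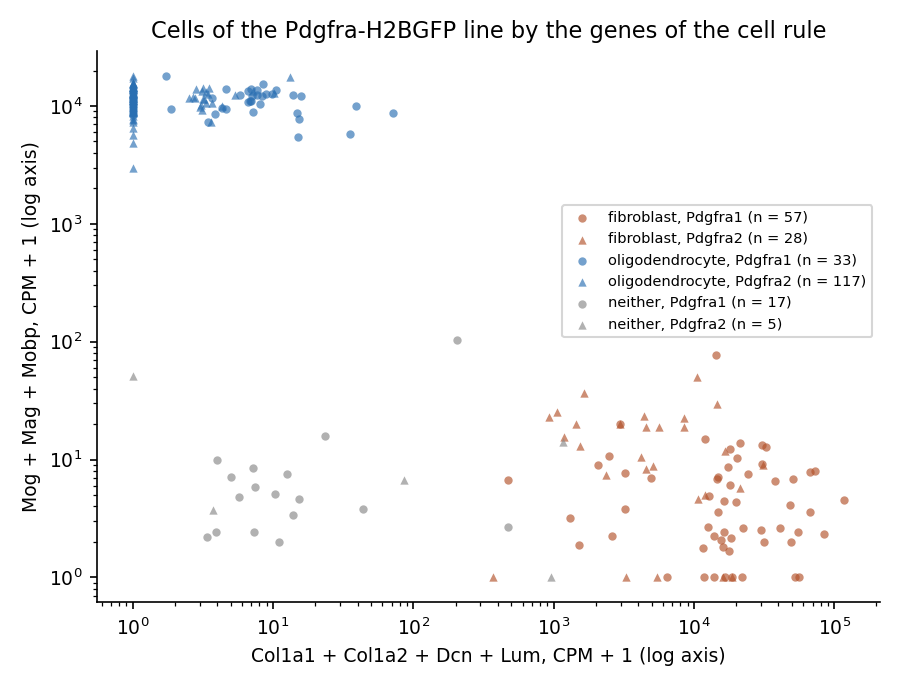
Each point is 1 of the 257 cells of the Pdgfra-H2BGFP line, with the summed level of Col1a1, Col1a2, Dcn and Lum across and the summed level of Mog, Mag and Mobp upward, both as CPM + 1 on log axes. Circles are plate Pdgfra1 and triangles plate Pdgfra2; the 85 fibroblasts and 150 oligodendrocytes lie in opposite corners, and most of the 22 cells of neither side lie low on both axes.

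The 2 groups were far apart on the genes that chose them, which is a property of the rule. All 4 fibroblast genes reached the threshold in 64 of the 85 fibroblasts, and all 3 oligodendrocyte genes in 147 of the 150 oligodendrocytes. The second-highest rule gene was 57.7, 66.1 and 79.8 CPM in the 3 fibroblasts nearest the threshold, and 32.4, 21.4 and 13.9 CPM in the nearest cells left out. On the oligodendrocyte side the nearest cells inside had 457, 667 and 1232 CPM, and the nearest outside had 14.4, 7.45 and 6.48 CPM.

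The labels name no animals, so each group is 1 sample on each plate and no test between them was run. Levels below are reads pooled over the cells of a group and plate, in CPM. Exact Poisson intervals cover counting error only. CPM is not scaled to transcript length, so levels are compared between groups for 1 gene and not between genes. Because the cells were chosen by their own expression, every difference between the groups is a description. A gene was called when it was at least 2-fold higher in the same group on both plates, with 1 CPM added to each level, and counted when it reached 5 CPM in either group.

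Depth and the share of reads in a ribosomal precursor transcript differed most for the fibroblasts of plate Pdgfra2. Median reads per fibroblast were 864783 on plate Pdgfra1 and 167712 on plate Pdgfra2, and per oligodendrocyte 1037490 and 477140. With every cell thinned to 100000 reads, the median number of genes read was 3725 and 2312 in fibroblasts and 3207 and 2910 in oligodendrocytes. Unthinned medians were 4486 and 2453, and 3905 and 3225. The ribosomal precursor transcript Rn45s held a median 9.24% of reads in the fibroblasts of plate Pdgfra2, against 1.53% in those of plate Pdgfra1 and 1.47% and 1.59% in oligodendrocytes. Markers of mural cells were also present in fibroblasts: 43 of 85 fibroblasts held at least 10% of a reference marker level of a vascular or immune class. So did 1 of 150 oligodendrocytes. By class these were pericyte markers in 17 and 4 fibroblasts of the 2 plates and smooth muscle markers in 15 and 11. Endothelial markers were held by 1 and 2 fibroblasts, and microglial markers by 1 on each. The reference for pericyte and smooth muscle markers was the whole Pdgfrb-eGFP/NG2-dsRed line pooled, at 50950.5 and 12109.5 CPM. It was the pooled Cldn5-eGFP line for endothelial markers, and cells of neither group for microglial markers. Levels of pure pericytes or smooth muscle cells were not used. No 2 cells had identical counts, and 40 well names occur on both plates.

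Of 11897 genes counted, 2921 (24.6%) were called higher in fibroblasts and 1536 (12.9%) higher in oligodendrocytes. Every list count below is to be read beside these shares. A further 1031 genes (8.67%) lay within 1.5-fold on both plates, and 601 (5.05%) were at least 2-fold apart in opposite directions on the 2 plates. The median gene was 0.36 higher in fibroblasts on the log2 scale. Scaling by median-of-ratios size factors lowered that shift to 0.11 and the share of calls that favoured fibroblasts from 65.5% to 58.6%. With the median cell in place of pooled reads the majority turned, with 433 genes called higher in fibroblasts and 1030 higher in oligodendrocytes.

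**Figure D2:**
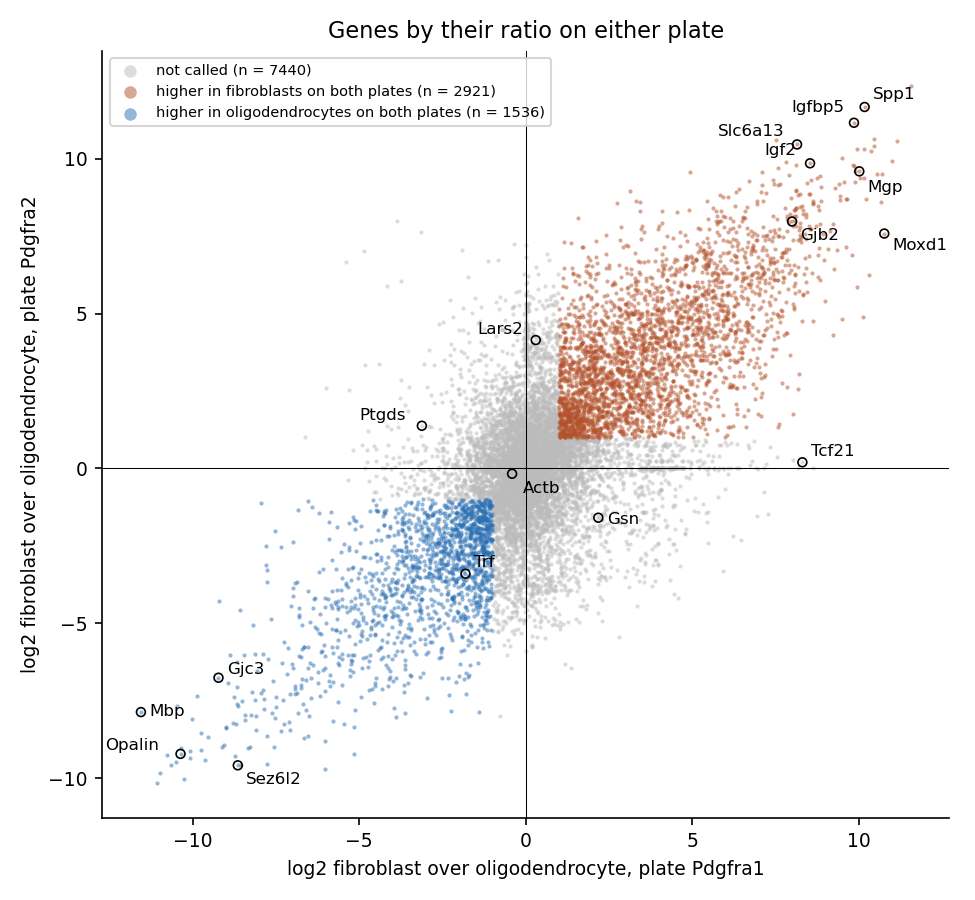
Each point is 1 of the 11897 genes counted, with its log2 ratio of fibroblasts over oligodendrocytes on plate Pdgfra1 across and on plate Pdgfra2 upward (1 CPM added). The 2921 genes called higher in fibroblasts are red, the 1536 called higher in oligodendrocytes are blue, and the named genes Ptgds, Gsn, Tcf21 and Lars2 lie off the diagonal.

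The connexins that were counted, which form the channels of gap junctions, divided cleanly between the groups in pooled reads. Oligodendrocytes are known to use connexins such as Gjb1 and Gjc3 in myelin and at contacts with other glia. Meningeal cells are known for Gjb2, Gjb6 and Gja1. Of 8 connexins counted, 5 were called higher in fibroblasts (Gja1, Gja4, Gjb2, Gjb6 and Gjc1) and 3 in oligodendrocytes, among them Gjb1 and Gjc3. The shares over all genes counted were 24.6% and 12.9%. A further 5 of the 13 connexins found did not reach 5 CPM in either group. The stretches of 250 bases before the start of 3 of these genes and of Opalin, a myelin membrane protein that was among the genes most biased to oligodendrocytes, are shown for reference to the genes compared. They are from RefSeq on GRCm38.p6, all on the minus strand, read 5′ to 3′ toward the gene, and capitals mark matches to the motifs listed after them.
Gjb2 (chr14:57104703-57104952): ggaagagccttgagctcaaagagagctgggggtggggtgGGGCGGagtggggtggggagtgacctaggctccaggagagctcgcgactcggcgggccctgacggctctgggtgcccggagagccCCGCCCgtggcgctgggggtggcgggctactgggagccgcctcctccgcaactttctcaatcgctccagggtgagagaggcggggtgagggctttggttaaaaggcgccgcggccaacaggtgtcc
Gjb6 (chr14:57133612-57133861): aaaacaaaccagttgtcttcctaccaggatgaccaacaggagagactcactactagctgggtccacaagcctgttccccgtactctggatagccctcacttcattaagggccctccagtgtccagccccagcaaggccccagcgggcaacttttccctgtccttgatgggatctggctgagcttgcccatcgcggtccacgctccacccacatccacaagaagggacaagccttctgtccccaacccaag
Gjc3 (chr5:137963099-137963348): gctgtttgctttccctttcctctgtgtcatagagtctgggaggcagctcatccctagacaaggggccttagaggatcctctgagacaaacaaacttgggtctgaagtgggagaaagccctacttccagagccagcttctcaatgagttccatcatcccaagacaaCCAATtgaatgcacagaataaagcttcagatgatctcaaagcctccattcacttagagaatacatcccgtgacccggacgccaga
Opalin (chr19:41077114-41077363): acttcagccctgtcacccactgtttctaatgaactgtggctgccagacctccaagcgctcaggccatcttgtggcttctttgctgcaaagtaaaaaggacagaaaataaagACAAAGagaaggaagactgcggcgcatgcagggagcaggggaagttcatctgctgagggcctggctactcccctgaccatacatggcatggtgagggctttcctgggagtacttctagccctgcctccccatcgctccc

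The motifs searched on both strands were ACAAAG (the core bound by SOX factors), CAGCTG and CATATG (E-boxes of the OLIG and TWIST types), TGANTCA (AP-1), GGGCGG (GC box), TATAAA and CCAAT. The Gjb2 stretch held 2 GC boxes and a GC content of 69.2%, while the neighbouring Gjb6 stretch held no match. Gjc3 held 1 CCAAT and Opalin 1 ACAAAG. Over 32851 RefSeq promoter stretches of this length, ACAAAG occurred in 16.5%, CAGCTG in 13.0%, CATATG in 3.46%, TGANTCA in 6.75%, GGGCGG in 32.7%, TATAAA in 12.4% and CCAAT in 33.8%. Among promoters of genes counted here, ACAAAG occurred in 12.1%, with 12.5% for genes called higher in fibroblasts and 14.9% for genes called higher in oligodendrocytes. In the same order CAGCTG occurred in 12.0%, 14.0% and 14.9%, CATATG in 1.53%, 2.06% and 1.75%, and TGANTCA in 4.35%, 5.62% and 4.91%. GGGCGG occurred in 57.7%, 57.2% and 54.1%, TATAAA in 6.36%, 7.47% and 5.82%, and CCAAT in 34.7%, 30.5% and 36.1%. A match describes letters in this window and no binding.

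Gjb2 and Gjb6 lie next to each other on chromosome 14 of mm10 (57098600 to 57104702 and 57123303 to 57133611, both on the minus strand). Gjb2 read 287 CPM (interval 283 to 292) and 266 CPM (253 to 279) in the fibroblasts of plates Pdgfra1 and Pdgfra2, and 0.124 and 0.0553 CPM in the oligodendrocytes. It was not a feature of every fibroblast: 36 of 57 and 12 of 28 cells had a read, with a cell median of 166 CPM on the first plate and 0 on the second. Gjb6 read 278 and 663 CPM in fibroblasts and 0.155 and 1.66 CPM in oligodendrocytes, and was read in 27 of 57 and 15 of 28 fibroblasts. On the other side Gjc3 read 765 and 1018 CPM in oligodendrocytes and 0.279 and 8.42 CPM in fibroblasts, and every oligodendrocyte had a read. Gjb1 read 375 and 518 CPM in oligodendrocytes and 0.0798 and 0.859 CPM in fibroblasts. The smallest ratio of pooled levels among these 4 genes was 121-fold, for Gjc3 on plate Pdgfra2. Taking the median cell in place of pooled reads left 0 of the 5 fibroblast connexins called, and all 3 oligodendrocyte connexins.

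The genes most biased to fibroblasts included secreted proteins such as Spp1, Igfbp5 and Mgp. By the ratio over both plates the leading 12, without the rule genes, included Spp1, Igfbp4, Igfbp5, Vtn, Inmt, Pcolce, Bgn, Serping1, Fstl1, Mgp and Prelp. Spp1 (osteopontin, a secreted matrix and cytokine-like phosphoprotein, chromosome 5, 104435118 to 104441050) read 2159.9 CPM (2147 to 2173) and 3819.6 CPM (3769.6 to 3870.1) in fibroblasts and 0.867 and 0.166 CPM in oligodendrocytes. Igfbp5, which binds insulin-like growth factors, read 1184 and 2648 CPM against 0.279 and 0.148 CPM. The related Igfbp4 read 3666 and 1802 CPM against 1.61 and 0.111 CPM. These pooled values were carried by part of the fibroblasts, since Spp1 reached 50 CPM in 30 of 57 and 15 of 28, and Igfbp5 in 34 of 57 and 16 of 28. Igfbp4 reached it in 54 of 57 and 18 of 28. No oligodendrocyte reached 50 CPM for any of the 3.

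Vtn (vitronectin, an adhesion protein of plasma and matrix that is also a pericyte marker) read 3402 and 1583 CPM in fibroblasts and 1.42 and 0.166 CPM in oligodendrocytes. Its log2 ratio was 10.43, and 8.96 without the cells that held markers of another class. Vtn is itself 1 of the markers by which those cells were left out, so part of this fall follows from the choice. Vtn also led the summed pericyte markers in fibroblasts (5406 and 2151 CPM), of which Higd1b had no read on plate Pdgfra2. Inmt, a methyltransferase, read 2015 and 1317 CPM against 0.526 and 0.0738 CPM. Fstl1, a secreted follistatin-like protein, read 1206 and 942 CPM against 0.310 and 0.0738 CPM.

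The matrix lists followed the same direction. All 18 collagens of the fibrillar and associated list were called higher in fibroblasts, with a median log2 ratio of 6.93 beside 0.36 over all genes counted. Col3a1, a fibrillar collagen that the rule did not use, read 1606 and 738 CPM against 0.526 and 0.0922 CPM. Col6a3, of the beaded-filament collagen VI, read 148 and 89.0 CPM against 0.031 and 10.1 CPM. With the median cell in place of pooled reads, 10 of the 18 collagens were called, and without cells holding markers of another class 16 were.

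Basement membrane genes gave 15 of 17 called higher in fibroblasts (median 7.02). Nid1 (nidogen, which links laminin to collagen IV) read 1213 and 540.3 CPM against 0.557 and 2.79 CPM, and Col18a1 read 359 and 464 CPM against 0.186 and 0 CPM. The laminins were not alike. Lamb1 read 603 and 577 CPM against 0.279 and 0.0553 CPM. Lama2, by contrast, kept 92.8 and 63.7 CPM in oligodendrocytes beside 1021 and 579 CPM in fibroblasts, and Lamc1 kept 21.6 and 26.2 CPM beside 339 and 383 CPM. Agrn (agrin) was not called, at 79.0 and 149.6 CPM in fibroblasts and 51.4 and 47.9 CPM in oligodendrocytes.

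Of 29 proteoglycans and elastic fibre genes 27 were called higher in fibroblasts (median 7.12). Prelp, a small leucine-rich proteoglycan, read 1241 and 986 CPM against 0.371 and 0.111 CPM. Bgn (biglycan) read 4473 and 1875 CPM against 1.70 and 1.55 CPM. Sparc, a collagen-binding protein, was the mildest of the abundant members, with 3113 and 2141 CPM against 156 and 128 CPM. Fbn2 was the 1 member called higher in oligodendrocytes. Dpt was read on plate Pdgfra1 only, at 81.6 CPM in fibroblasts. The median cell gave 12 of 29 calls.

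Enzymes that process collagen were split between a shared set and a fibroblast set. Of the 19 counted, 10 were called higher in fibroblasts and 8 were not called. Pcolce, which speeds the trimming of procollagen, read 1343 and 1411 CPM against 0.371 and 0.111 CPM. Loxl1, a cross-linking oxidase, read 286 and 179.7 CPM against 0.0929 and 0.0922 CPM. Serpinh1, the collagen chaperone, read 459.7 and 235 CPM against 1.86 and 0.166 CPM. Plod1, a lysyl hydroxylase, lay within 1.5-fold at 147 and 183 CPM in fibroblasts and 142 and 234 CPM in oligodendrocytes. Bmp1, the procollagen protease, read 103 and 79.2 CPM beside 92.6 and 46.9 CPM. The 1 call toward oligodendrocytes was Pcolce2, a relative of Pcolce, with 81.5 and 114 CPM against 10.7 and 1.37 CPM. The median cell gave 4 of 19 calls toward fibroblasts.

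The matrix proteases and their inhibitors gave 12 of 17 called higher in fibroblasts and 1 higher in oligodendrocytes, and 5 and 1 with the median cell. Mmp14, a membrane-bound metalloprotease, read 576 and 325 CPM against 0.279 and 0 CPM, and Serpinf1 (pigment epithelium-derived factor) read 1426 and 799.9 CPM against 1.39 and 2.32 CPM. Adamts4, an aggrecan-cleaving protease, was the exception at 212 and 228 CPM in oligodendrocytes and 4.61 and 1.89 CPM in fibroblasts. Htra1, a secreted serine protease, lay within 1.5-fold, at 396 and 393 CPM in fibroblasts and 292 and 495 CPM in oligodendrocytes.

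The receptors that bind matrix were called in both directions. Of 23 integrins and matrix receptors 14 were called higher in fibroblasts and 3 in oligodendrocytes, beside 24.6% and 12.9% over all genes counted. The 3 toward oligodendrocytes were thus near the share of all genes. With the median cell the counts were 4 and 2. The 2 collagen receptor kinases were opposite. Ddr2, the receptor for fibrillar collagen, read 328 and 337 CPM in fibroblasts and 0.031 and 0.0369 CPM in oligodendrocytes. Ddr1 read 739 and 720.4 CPM in oligodendrocytes and 74.9 and 178 CPM in fibroblasts. Itga8 read 812 and 273 CPM in fibroblasts and 3.31 and 0.0184 CPM in oligodendrocytes. Itgb4, part of a laminin receptor, read 205 and 194 CPM in oligodendrocytes and 7.96 and 4.81 CPM in fibroblasts.

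**Figure D3:**
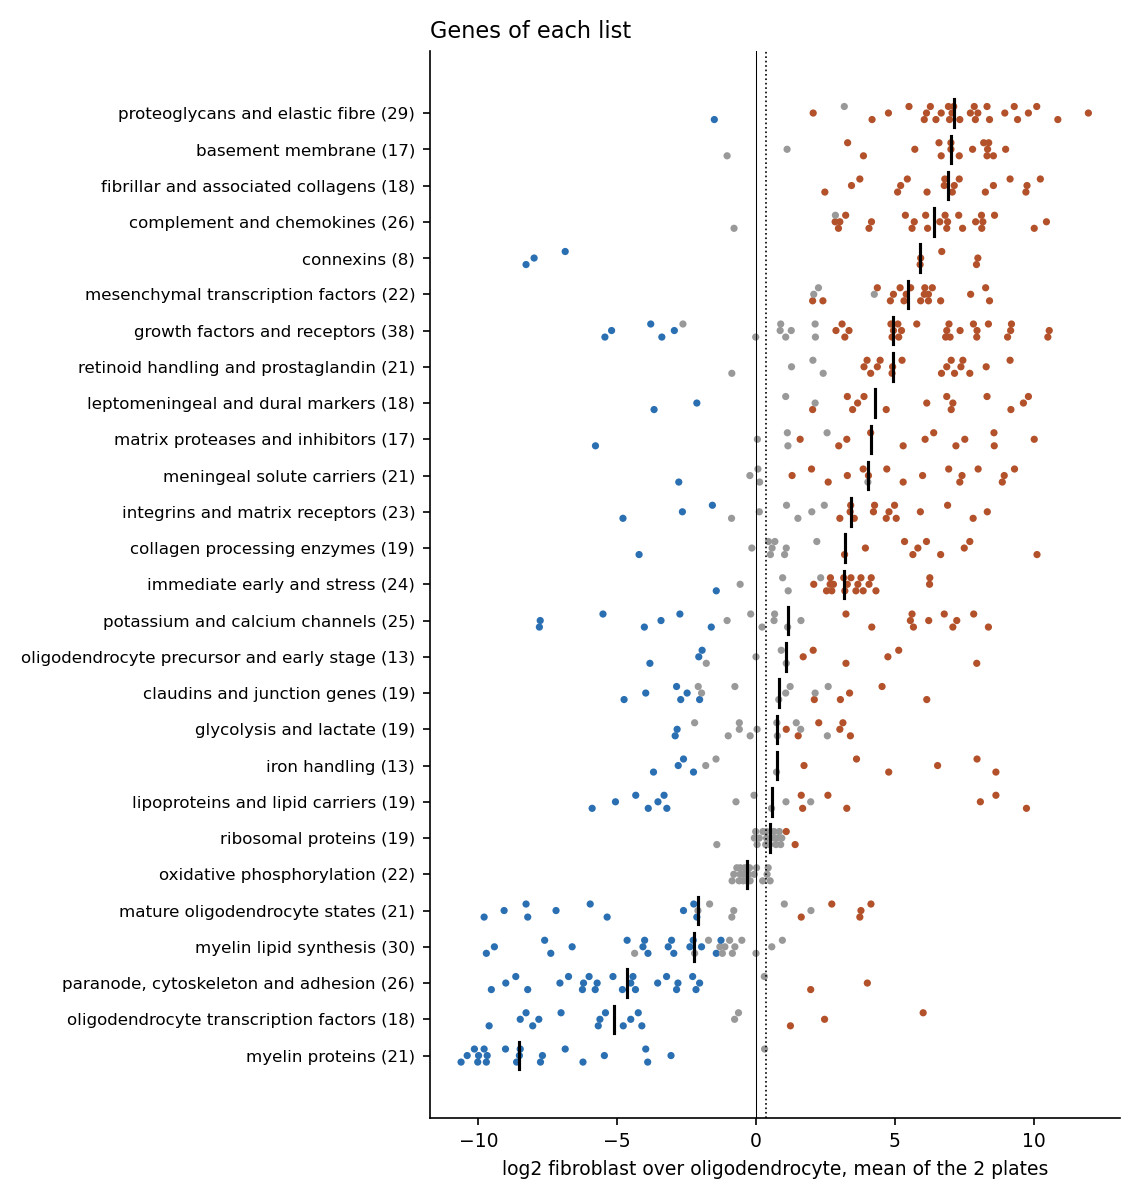
Each point is 1 counted gene of the 27 gene lists, placed by its mean log2 ratio of fibroblasts over oligodendrocytes on the 2 plates, with black bars at list medians and the dotted line at the median of all genes counted (0.36). Red points were called higher in fibroblasts, blue in oligodendrocytes and grey neither; list sizes are in parentheses, and the medians run from 7.12 for proteoglycans to -8.52 for myelin proteins.

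Transcription factors of mesenchymal cells were mostly higher in the fibroblasts. Of 22 counted 19 were called higher in fibroblasts and none in oligodendrocytes (median 5.49). Tbx18, a T-box factor of mural and meningeal cells, read 205 and 589 CPM against 0.031 and 0.0184 CPM. Foxc1, a forkhead factor required for the meninges, read 122 and 374 CPM against 0 and 0.0184 CPM. Nr2f2 (COUP-TFII) read 294 and 344 CPM against 0.0619 and 0 CPM. Twist1 read 14.0 and 27.5 CPM in fibroblasts and had no read in any oligodendrocyte. Foxp1 was the mildest call, at 126 and 166 CPM against 55.3 and 21.3 CPM. The median cell gave 8 of 22 calls.

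Of 18 oligodendrocyte factors counted, 13 were called higher in oligodendrocytes and 3 in fibroblasts (median -5.10), beside 12.9% and 24.6% over all genes counted. Median-of-ratios size factors gave 13 and 1. Olig1 read 1726 and 1718 CPM in oligodendrocytes and 0.579 and 2.06 CPM in fibroblasts. Sox10, which drives myelin genes, read 697 and 534 CPM against 1.56 and 0.515 CPM, and Myrf, the myelin regulatory factor, read 672 and 680.4 CPM against 0.619 and 1.20 CPM. The 3 members called higher in fibroblasts were Sox9, a factor of glia and of connective tissue (96.0 and 109 CPM against 0.0929 and 1.33 CPM), Tcf7l2 (59.8 and 60.5 against 3.10 and 28.6 CPM) and Tcf4 (487 and 675 against 237 and 247 CPM).

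The myelin proteins were the list with the lowest median (-8.52), and 20 of 21 were called higher in oligodendrocytes. Mbp, which compacts the membrane stack, read 10866 CPM (10830.5 to 10902) and 10725 CPM (10697 to 10753) in oligodendrocytes and 2.59 and 45.0 CPM in fibroblasts. Its level was steady over oligodendrocytes, from 5412 through a median of 11563 to 15663 CPM on plate Pdgfra1, and from 4893 through 10348 to 18142 CPM on plate Pdgfra2. The highest fibroblast held 1588 CPM, so the groups did not overlap. Opalin (chromosome 19, 41061710 to 41077113) read 1844 and 1315 CPM against 0.399 and 1.20 CPM. Other leading genes were Gpr37, an orphan receptor of myelinating cells (2253 and 2209.6 CPM against 0.379 and 1.89 CPM), Tspan2, a tetraspanin (3069 and 2517 against 0.758 and 3.09 CPM), and Ermn (1715 and 2488 against 0.319 and 3.78 CPM).

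The 1 myelin protein that was not called was Pmp22, a component of peripheral myelin, which read 624 and 438 CPM in fibroblasts and 297 and 595 CPM in oligodendrocytes. Cldn11, the claudin of the myelin tight junction, was called but less widely apart. It read 7162 and 6645 CPM in oligodendrocytes and 425 and 451 CPM in fibroblasts. In single fibroblasts it ranged from 0 through medians of 9.55 and 17.5 CPM to 9213 and 3355 CPM, and 31 fibroblasts reached 50 CPM. In 22 fibroblasts Cldn11 was at or above the lowest oligodendrocyte. Cldn11 is known also in arachnoid barrier cells of the meninges.

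Traces of the most abundant genes were found across the groups on the same plates. Mbp was read in 49 of 57 fibroblasts of plate Pdgfra1 (highest 19.1 CPM) and in 21 of 28 of plate Pdgfra2 (highest 1588 CPM). Mgp, the most abundant fibroblast transcript of plate Pdgfra1 among the leading 12, was read in 33 of 33 oligodendrocytes of that plate (median 8.85 CPM) and in 5 of 117 of plate Pdgfra2, where fibroblast Mgp was lower. Fibroblasts with an oligodendrocyte in a neighbouring well (43 and 25 cells) held median summed oligodendrocyte markers, Cldn11 among them, of 282 and 218 CPM. The 14 and 3 fibroblasts without such a neighbour held 412 and 278 CPM. In the other direction the sum of fibroblast markers left out Gsn, which oligodendrocytes also held. On plate Pdgfra1 that sum had a median of 10.2 CPM in the 31 oligodendrocytes beside a fibroblast and 6.61 CPM in the 2 others. On plate Pdgfra2 both medians were 0. With all 12 fibroblast markers, led by Gsn, the medians over oligodendrocytes were 816 and 1132 CPM. The 2 directions were thus not measured alike. The part of carry-over between wells in these traces was not tested.

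Genes of lipid synthesis differed less than the myelin proteins. Of 30 counted 17 were called higher in oligodendrocytes, none in fibroblasts and 13 neither (median -2.24). The enzymes of the myelin galactolipids stood at the far end. Ugt8a, which makes galactosylceramide, read 1427 and 1981 CPM against 0.319 and 2.06 CPM. Fa2h, which hydroxylates its fatty acid, read 1204 and 1372 CPM against 0.379 and 1.55 CPM. The cholesterol synthesis gene Sqle was closer, at 97.9 and 100.0 CPM in fibroblasts and 113 and 177 CPM in oligodendrocytes.

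Genes of the paranode, cytoskeleton and adhesion gave 23 of 26 called higher in oligodendrocytes (median -4.66). Cntn2, an adhesion protein of the juxtaparanode, read 924 and 1033 CPM against 0.160 and 0.515 CPM. Tubb4a, a tubulin of myelinating cells, read 9442 and 13632 CPM against 42.6 and 17.3 CPM, and Tmem88b read 1210.5 and 1336 CPM against 1.26 and 1.72 CPM. Among channels, 11 of 25 were called higher in fibroblasts and 7 in oligodendrocytes, beside 24.6% and 12.9% over all genes counted. With the median cell the channel counts were 4 and 5. Kcna1, a voltage-gated potassium channel, read 826 and 592 CPM in oligodendrocytes and 5.13 and 0.687 CPM in fibroblasts, and Kcnj10 (Kir4.1, which takes up potassium) read 321 and 358 CPM against 0.140 and 1.03 CPM. Kcnj8, the pore of a potassium channel known in pericytes, read 614 and 108 CPM in fibroblasts and 0.248 and 0.0184 CPM in oligodendrocytes. Without the cells holding markers of another class its log2 ratio went from 7.84 to 3.48 and it was no longer called. Kcnj8 is itself 1 of the pericyte markers by which those cells were left out, so part of this fall follows from the choice.

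Of 38 growth factors and receptors counted, 25 were called higher in fibroblasts and 5 in oligodendrocytes. The shares over all genes counted were 24.6% and 12.9%, so the 5 toward oligodendrocytes were near the share of all genes. With the median cell the counts were 10 and 2. Among the ligands, Igf2 read 429.6 and 2611 CPM in fibroblasts and 0.155 and 1.81 CPM in oligodendrocytes. Fgf1 read 145 and 231 CPM in oligodendrocytes and 17.7 and 0.344 CPM in fibroblasts. Pdgfa, a ligand of Pdgfra, read 82.5 and 97.6 CPM in oligodendrocytes and 12.7 and 9.27 CPM in fibroblasts, so that ligand and receptor transcripts were higher in opposite groups. Of the fibroblast growth factor receptors, Fgfr1 read 544 and 844 CPM in fibroblasts against 0.217 and 5.09 CPM, and Fgfr2 read 904 and 755 CPM in oligodendrocytes against 70.4 and 86.7 CPM. Erbb3, a neuregulin receptor, read 94.0 and 33.3 CPM in oligodendrocytes and 0.140 and 0.515 CPM in fibroblasts. The insulin receptor Insr lay within 1.5-fold, at 81.8 and 166 CPM in fibroblasts and 102 and 135 CPM in oligodendrocytes.

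Complement and chemokine genes gave 24 of 26 called higher in fibroblasts and none in oligodendrocytes (median 6.40). Serping1, the C1 inhibitor, read 3311 and 747 CPM against 1.21 and 0.0369 CPM. The neutrophil chemokine Cxcl1 read 486 and 383 CPM against 0.217 and 0.0369 CPM. The 2 genes not called were complement components. C4b read 34.7 and 14.1 CPM in fibroblasts and 72.0 and 21.0 CPM in oligodendrocytes, and C3 read 58.5 and 0 CPM and 0.0929 and 0.0369 CPM. The median cell gave 10 of 26 calls, and 0.00 in place of 8.59 for the log2 ratio of Cxcl1.

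Genes that handle retinoids and prostaglandins gave 17 of 21 called higher in fibroblasts and none in oligodendrocytes (median 4.92). Cyp1b1, a cytochrome that can act on retinoids, read 530.4 and 234 CPM against 0.248 and 0.0184 CPM. Aldh1a2, which makes retinoic acid, read 155 and 341 CPM against 2.14 and 0 CPM. Among solute carriers of the meninges 16 of 21 were called higher in fibroblasts. Slc6a13, a transporter of GABA and taurine, read 337 and 1888 CPM against 0.186 and 0.332 CPM. Slc7a11, the cystine exchanger, read 325 and 1156 CPM against 0.433 and 0.203 CPM. Slc38a2, an amino acid carrier of many cells, lay within 1.5-fold, at 350.2 and 594 CPM in fibroblasts and 375 and 750.1 CPM in oligodendrocytes. The median cell gave 3 of 21 and 2 of 21 calls for these lists.

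Lipid carriers and iron genes were shared out between the groups. Of 19 lipid carriers 7 were called in each direction, beside 24.6% toward fibroblasts and 12.9% toward oligodendrocytes over all genes counted. With the median cell 3 were called toward fibroblasts and 6 toward oligodendrocytes. Lrp1, a scavenger receptor, read 1532 and 2828 CPM in fibroblasts and 0.619 and 2.64 CPM in oligodendrocytes, and Lpl, lipoprotein lipase, read 258 and 363 CPM against 0.0619 and 0.221 CPM. Cryab, a small heat shock protein, read 2574 and 4771 CPM in oligodendrocytes and 65.4 and 51.2 CPM in fibroblasts. Apod, a lipid-binding secreted protein, was abundant in both. It read 12021 and 18080.2 CPM pooled over fibroblasts and 3819 and 5975 CPM over oligodendrocytes. Its cell medians were 3722 and 5214 CPM in fibroblasts and 3809 and 5336 CPM in oligodendrocytes, so the typical cell of either group held much the same and a part of the fibroblasts held far more.

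Iron handling gave 6 of 13 called higher in fibroblasts and 4 in oligodendrocytes, beside 24.6% and 12.9% over all genes counted. With the median cell the iron counts were 2 and 3. Trf (transferrin, the iron carrier) read 14011 and 15284 CPM in oligodendrocytes and 3997 and 1446 CPM in fibroblasts, and Tfrc, its receptor, read 96.8 and 78.1 CPM against 9.96 and 3.26 CPM. The ferroxidase Cp (ceruloplasmin) read 2443 and 1367 CPM in fibroblasts and 11.8 and 0.646 CPM in oligodendrocytes. Heph, a related ferroxidase, read 367 and 26.1 CPM against 0.155 and 0 CPM. Of the ferritin chains, Fth1 read 9039 and 14649.6 CPM in oligodendrocytes and 2698 and 2170.3 CPM in fibroblasts, while Ftl1 read 472 and 645 CPM in fibroblasts and 164 and 166 CPM in oligodendrocytes.

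**Figure D4:**
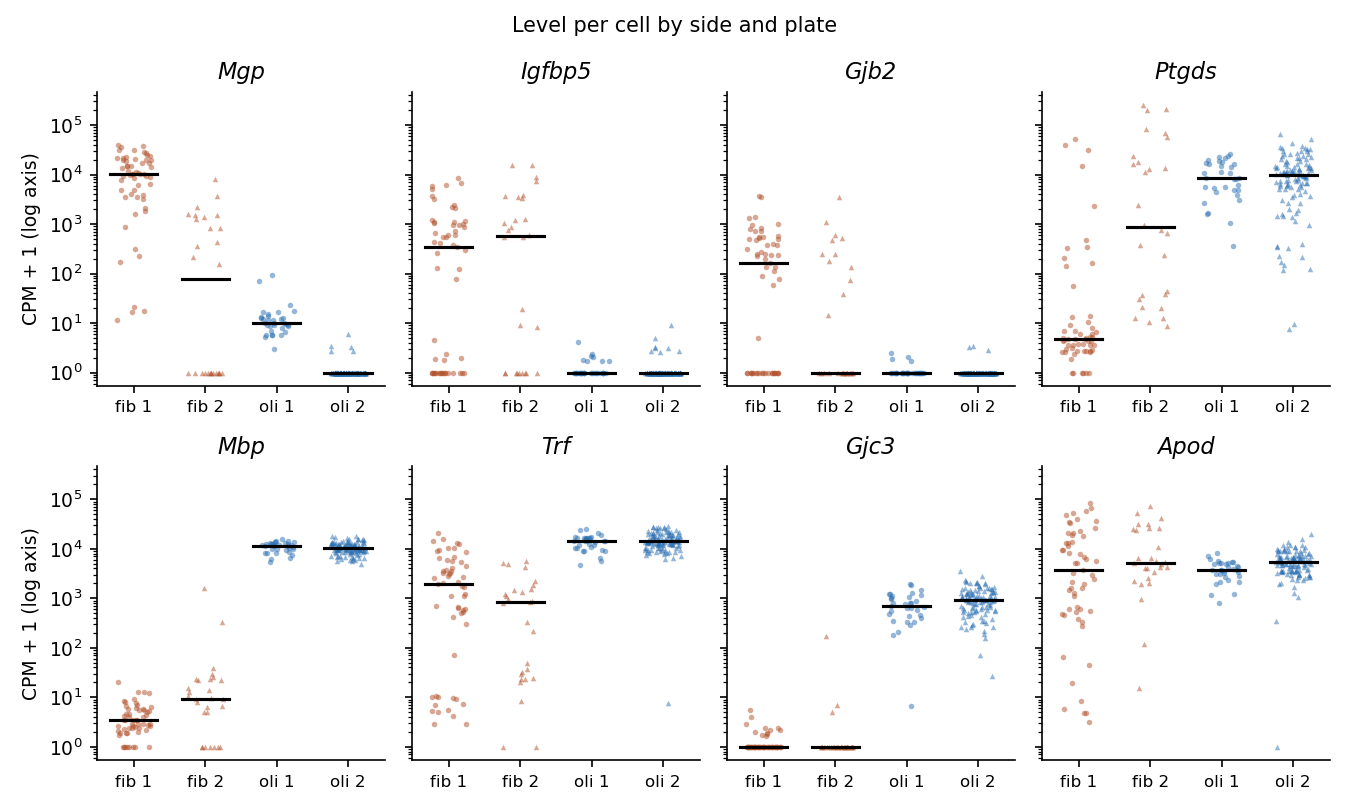
Each point is 1 cell, with its level as CPM + 1 on a log axis and a bar at the median, for 8 genes in the fibroblasts (fib) and oligodendrocytes (oli) of plates Pdgfra1 (1) and Pdgfra2 (2). Mbp separates the groups fully, Igfbp5 and Gjb2 are read in a part of the fibroblasts, Apod has alike medians in both groups, and Ptgds has fibroblast medians of 3.70 and 857 CPM.

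None of the 22 genes of oxidative phosphorylation was called in either direction (median -0.32), and 2 were called higher in oligodendrocytes with the median cell. Glycolysis genes were called about as often as genes in general, with 6 of 19 higher in fibroblasts and 2 in oligodendrocytes (median 0.77) beside 24.6% and 12.9% over all genes counted. The median cell gave 2 and 3. Atp5b, a subunit of the ATP synthase, read 935 and 1051 CPM in fibroblasts and 1030.4 and 1034 CPM in oligodendrocytes. Among glycolysis genes, Aldoa read 623 and 815 CPM beside 933 and 732 CPM, and Pkm 131 and 126 CPM beside 141 and 110 CPM. Ldha, which makes lactate, was higher in fibroblasts at 583 and 258 CPM against 42.7 and 51.5 CPM. The carriers of lactate and glucose pointed the other way. Slc16a1 (MCT1) read 294 and 277 CPM in oligodendrocytes and 12.4 and 107 CPM in fibroblasts, and Slc2a1 (GLUT1) read 357 and 298 CPM against 17.7 and 110.3 CPM.

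The 8 highest genes within 1.5-fold on both plates included Actb, Atp5b, Sqstm1, Aldoa, Eef2, Tspan3 and Atp5a1. Actb (beta-actin) read 2351 and 1483 CPM in fibroblasts and 3114 and 1672 CPM in oligodendrocytes, and Eef2, an elongation factor, read 583 and 1088 CPM and 668 and 738 CPM. Of 19 ribosomal protein genes 2 were called, both higher in fibroblasts (median 0.49).

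Of 24 immediate early and stress genes 19 were called higher in fibroblasts, and 8 with the median cell, with Hsp90aa1 the 1 call toward oligodendrocytes (308 and 519.8 CPM against 102 and 214 CPM). Klf2 read 293 and 104 CPM in fibroblasts and 4.18 and 0.0184 CPM in oligodendrocytes, and Ier3 read 513 and 128 CPM against 6.87 and 0.461 CPM. Fos, a factor induced within minutes of a stimulus, read 10502 and 2668 CPM in fibroblasts and 1567 and 405 CPM in oligodendrocytes.

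Of 21 precursor and early stage genes 8 did not reach 5 CPM in either group. Of the other 13, 6 were called higher in fibroblasts and 3 in oligodendrocytes, beside 24.6% and 12.9% over all genes counted. With the median cell the counts were 1 and 0. The summed precursor markers read 13.9 and 65.0 CPM in oligodendrocytes, where Cspg4 led with 34.6 CPM on plate Pdgfra2. Enpp6, a marker of newly formed oligodendrocytes, read 122 and 254 CPM in oligodendrocytes and reached 50 CPM in 9 of 33 and 54 of 117 cells. Of 21 mature state genes 10 were called higher in oligodendrocytes and 5 in fibroblasts. The 5 toward fibroblasts were near the 24.6% over all genes counted, where 12.9% went toward oligodendrocytes. With the median cell 11 were called toward oligodendrocytes and 3 toward fibroblasts. Car2 (carbonic anhydrase) read 5737 and 8323 CPM in oligodendrocytes and 4.47 and 29.4 CPM in fibroblasts, and Grm3, a glutamate receptor, read 414 and 516 CPM against 1.22 and 0 CPM. The members furthest toward fibroblasts were Anxa5, a membrane-binding annexin (814 and 868 CPM against 54.4 and 70.2 CPM), Cdkn1c, a cell cycle inhibitor (111 and 217 against 5.57 and 11.0 CPM), and the immediate early factor Egr1 (3765 and 2193 against 330.5 and 132 CPM). Across single oligodendrocytes Enpp6 and Ptgds ran in opposite directions, with Spearman's rho of -0.71 over 33 cells and -0.51 over 117 cells, as a description over cells that share a plate. Il33, an alarmin that is also a meningeal marker, was called higher in oligodendrocytes at 2395 and 1862 CPM against 613 and 379.7 CPM.

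Ptgds was among the 601 genes that were ordered differently on the 2 plates, and it differed between the plates mainly in fibroblasts. The enzyme, which makes prostaglandin D2 and is known in both oligodendrocytes and arachnoid cells (chromosome 2, 25466709 to 25470046), read 10857 and 12119 CPM in oligodendrocytes. In fibroblasts it read 1250.1 CPM on plate Pdgfra1 and 31562 CPM on plate Pdgfra2. The log2 ratio was therefore -3.12 on the first plate and 1.38 on the second. Single fibroblasts ranged from 0 through 3.70 to 53185 CPM and from 7.92 through 857 to 249422 CPM, and 12 of 57 and 18 of 28 reached 50 CPM. Single oligodendrocytes ranged from 360.5 through 8361 to 26226 CPM and from 6.55 through 9747 to 64425 CPM. The groups overlapped on both plates, and the fibroblast median was below the oligodendrocyte median on both. Some cells left out by the rule held much Ptgds. On plate Pdgfra1 a cell of neither group read 160651 CPM with 9438 CPM of Mgp, and another read 65660 CPM with 6466 CPM of Mgp. On plate Pdgfra2 a cell of neither group read 39068 CPM of Ptgds. The pooled Ptgds levels and their order thus depend on the cell rule, and the part of these cells was not tested.

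Gsn (gelsolin, which severs actin) was the reverse. It read 5472 and 419.6 CPM in fibroblasts and 1205 and 1263 CPM in oligodendrocytes, with log2 ratios of 2.18 and -1.59.

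Within the fibroblasts the 2 plates differed widely, with 3590 of 11855 genes (30.3%) at least 2-fold higher on plate Pdgfra1 and 2950 (24.9%) on plate Pdgfra2. Within the oligodendrocytes the same counts were 1314 of 9745 (13.5%) and 1248 (12.8%). The fibroblasts of plate Pdgfra2 were fewer and shallower, and the part of depth in these counts was not tested. The labels do not say which animals filled a plate, so a difference between the plates cannot be split into animal and plate.

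The genes with the largest fibroblast ratio toward plate Pdgfra1 were Svopl, Tcf21, Abcc9, Gdf10, Ifngr2 and Ednra. Svopl read 494 CPM there and 0 on plate Pdgfra2. Tcf21, a mesenchymal transcription factor, read 337 and 0.172 CPM and reached 50 CPM in 30 of 57 and 0 of 28 fibroblasts. Abcc9, a channel subunit that is also a pericyte marker, read 425 and 0.687 CPM, and the endothelin receptor Ednra read 189 and 1.55 CPM. Toward plate Pdgfra2 the leading genes were Ptgds, Lars2, Zfp949, Sun2, Fbrs and Epn1. Lars2, a mitochondrial leucyl-tRNA synthetase, read 332 and 6612 CPM in fibroblasts and 269 and 373 CPM in oligodendrocytes. It moved with Rn45s across cells (rho 0.65 and 0.87 in the fibroblasts of the 2 plates, 0.60 and 0.72 in the oligodendrocytes), and the part of Rn45s in the Lars2 difference was not tested.

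The plates also differed in the share of fibroblasts that reached 50 CPM of some genes. Mgp (matrix Gla protein, an inhibitor of calcification) and Slc6a13 ran in opposite directions across fibroblasts, and the cells that reached 50 CPM of each were nearly separate on plate Pdgfra2 but not on plate Pdgfra1. On plate Pdgfra1, 53 of 57 fibroblasts reached 50 CPM of Mgp and 14 reached it for Slc6a13, with 10 cells reaching both. On plate Pdgfra2, 14 of 28 reached it for Mgp and 15 for Slc6a13, with 1 reaching both. Spearman's rho between the genes was -0.49 over 57 cells and -0.83 over 28 cells. Slc6a13 and Igf2 went together (0.66 and 0.82), as did Mgp and the monooxygenase Moxd1 (0.49 and 0.48). On plate Pdgfra1 Tcf21 followed Moxd1 (0.81), and of the 30 fibroblasts with Tcf21 at 50 CPM all reached it for Mgp and 2 for Slc6a13. On plate Pdgfra2 the cells with Mgp also held more Rn45s (rho 0.50) and those with Slc6a13 held less (rho -0.53). The parts of Rn45s and of depth were not tested. Pooled over fibroblasts, Mgp read 13469 and 858 CPM and Igf2 429.6 and 2611 CPM. Whether the plates held different mixes of fibroblasts, and the part of such a mix in these levels, was not tested.

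Within the oligodendrocytes the genes higher on plate Pdgfra1 were Cxcl12, Junb, Zfp36, Fosb, Timp3 and Gabrr2. Cxcl12, the chemokine that is abundant in fibroblasts, read 56.2 and 5.79 CPM, with 1 cell at or above 50 CPM on either plate. Without the 1 cell that held markers of another class the order turned, with a log2 ratio of plate Pdgfra1 over plate Pdgfra2 of -1.50. Junb read 187 and 29.4 CPM and Fosb 87.4 and 15.4 CPM. Toward plate Pdgfra2 were Npsr1, Imp3, Zfp488, Snupn, Snx33 and Mob3b. Npsr1, a neuropeptide receptor, had no read in the 33 oligodendrocytes of plate Pdgfra1 and 131 CPM on plate Pdgfra2, where 59 of 117 cells reached 50 CPM. Zfp488, a zinc finger factor of oligodendrocytes, read 15.0 and 134 CPM.

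Of these genes 3 are neighbours. Snx33, Imp3 and Snupn lie in a row on chromosome 9 of mm10, between 56917193 and 56983206, beside Cspg4 (56865033 to 56899870) and Odf3l1 on one side and Ptpn9 on the other. Cspg4 encodes NG2, whose gene drives the dsRed reporter of the mural line in this series. Imp3, a nucleolar protein, read 79.0 and 1187 CPM in oligodendrocytes of plates Pdgfra1 and Pdgfra2 and 164 and 1539.9 CPM in fibroblasts. Snx33, a sorting nexin, read 150.3 and 1175 CPM in oligodendrocytes and 101 and 758 CPM in fibroblasts. Snupn, an import adaptor, read 53.1 and 454 CPM in oligodendrocytes and 34.7 and 160.4 CPM in fibroblasts. Both kinds of cell were thus higher on plate Pdgfra2 for all 3.

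The flanking genes moved the same way in oligodendrocytes. Cspg4 read 0.0929 and 34.6 CPM there, with reads in 3 of 33 and 49 of 117 cells. Odf3l1 read 0 and 7.58 CPM, and Ptpn9 read 3.99 and 35.8 CPM. The next genes along, Sin3a and Commd4, read 19.1 and 31.2 CPM and 99.8 and 101 CPM. On the 4 plates of the Pdgfrb-eGFP/NG2-dsRed line, Odf3l1 read between 466 and 519 CPM, Cspg4 between 1615 and 2117 CPM and Snx33 between 1678 and 1809 CPM. On the 4 plates of the Cldn5-eGFP line Odf3l1 read between 1.66 and 5.27 CPM and Snx33 between 17.0 and 59.6 CPM, while Imp3 (569 to 1523 CPM) and Snupn (341 to 687 CPM) were high there too. The cause was not tested.

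**Figure D5:**
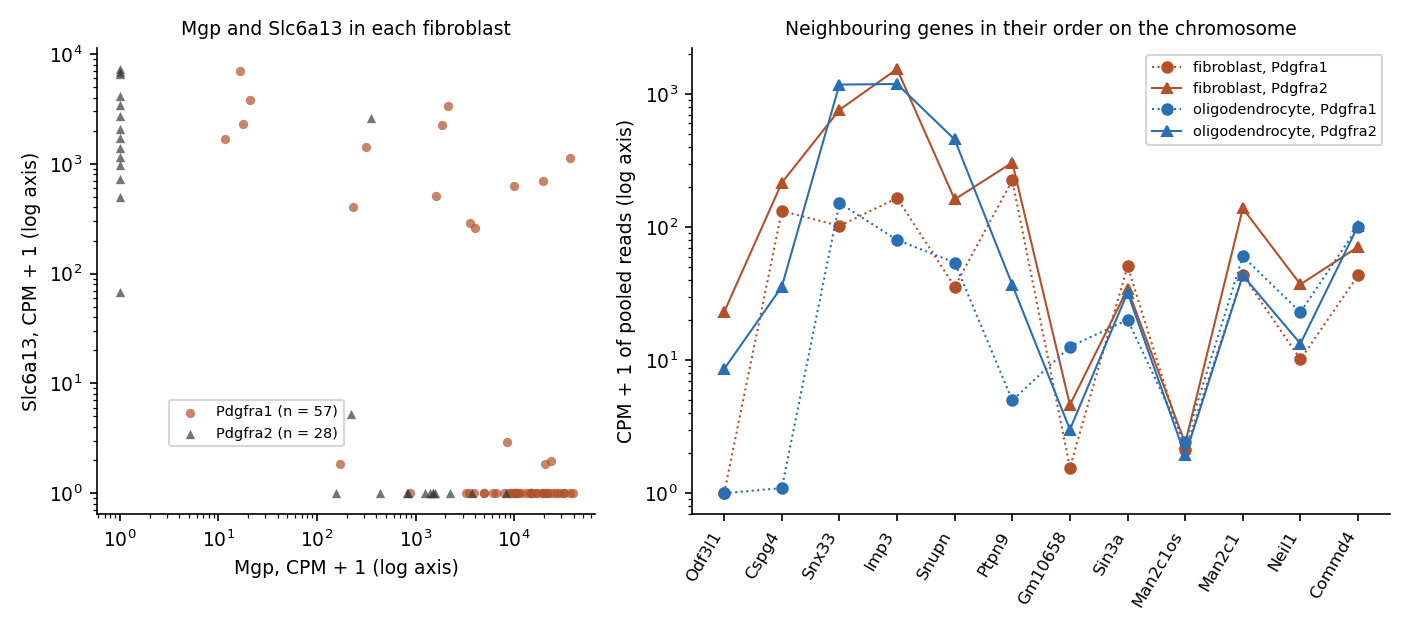
Left, each point is 1 of the 85 fibroblasts, with Mgp across and Slc6a13 upward as CPM + 1 on log axes; 1 of 28 cells of plate Pdgfra2 and 10 of 57 of plate Pdgfra1 reach 50 CPM of both. Right, pooled level (CPM + 1, log axis) of neighbouring genes in the order of their start on chromosome 9 in fibroblasts (red) and oligodendrocytes (blue) of plate Pdgfra1 (dotted, circles) and plate Pdgfra2 (solid, triangles), where Snx33, Imp3 and Snupn are higher on plate Pdgfra2 in both.

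The plates further differed in sex-linked transcripts. On plate Pdgfra1, 85 of 90 member cells had reads of Xist and of none of the 4 Y-linked genes Ddx3y, Eif2s3y, Kdm5d and Uty, and 0 cells had a read of these 4. On plate Pdgfra2, 61 of 145 had Xist alone, 50 had Y-linked genes alone, 3 had both and 31 had neither. Both kinds of cell showed this, with Y-linked reads alone in 9 of 28 fibroblasts and 41 of 117 oligodendrocytes of that plate. Plate Pdgfra2 thus held cells of both sexes, and so of different animals. The labels name no sex for a plate, and the part of sex in the plate differences was not tested.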

How the data were processed

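Single-cell Smart-seq2 profiles of 257 Pdgfra-H2BGFP brain cells on 2 plates were used, from deposited tables of 3186 cells and 19937 genes. The deposited counts are whole reads per gene and cell, without molecular tags. The authors' deposited scaled values, a score that sums to between 499565 and 501418 per cell in this line, served as an alternative. Reads were aligned with STAR 2.4.2a to mm10, per the submitters' processing notes; gene counter and annotation: not given in the sources used here.

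Counts were divided by the cell total, cells were chosen by the rule above, and reads were summed per group and plate. Before taking log2 ratios, 1 CPM was added as a pseudocount. Genes had to reach 5 CPM as the mean of plates in either group. Intervals were exact Poisson for levels and exact binomial for shares, at 95%, and cover counting error only. Cells were thinned to 100000 reads for genes per cell. Since animals are not named in the labels, groups were not tested against each other. The procedure was tested on simulated data. The simulation held only genes with many reads and the same levels on both plates. It therefore does not cover genes of few reads or differences between plates. Python 3.11.15, numpy 2.4.6, pandas 2.3.3 and scipy 1.17.1 were used, with positions from GENCODE M21.

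Named genes were the 12 largest ratios each way (at least 50 CPM and read in 50% of cells of the higher group on each plate), the 8 highest genes within 1.5-fold, for every list the 3 most extreme ratios on either side (at least 20 CPM) plus genes within 1.5-fold at 100 CPM or more, the 6 largest plate ratios each way in each group, and the 7 genes of the cell rule. Outside these rules, Aldh1a2, Apod, Commd4, Fbn2, Fgfr1, Fos, Fth1, Ftl1, Gja4, Gjc1, Odf3l1, Pdgfa, Ptpn9, Sin3a, Rn45s and the sex-linked genes were named after their values were seen. The cells, gene lists and markers were chosen with earlier results of these data known. Some genes that these rules name are not reported here. No doublet caller was run. Cells holding markers of another class were left out as an alternative.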

Additional observations from a re-analysis of the deposited data

Results flagged for a closer look

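These 5 genes were at least 2-fold apart in opposite directions on the 2 plates, and these differences between plates were not tested. They were named by their plate ratio within fibroblasts or as list members, so a difference between plates was part of the choice for 4 of them. The log2 ratio of fibroblasts over oligodendrocytes was -3.12 on plate Pdgfra1 and 1.38 on plate Pdgfra2 for Ptgds, and 2.18 and -1.59 for Gsn. It was 3.58 and -3.09 for Ifngr2, the second chain of the interferon gamma receptor, which read 93.6 and 0.172 CPM in fibroblasts and 6.90 and 8.97 CPM in oligodendrocytes. It was -1.08 and 2.42 for Epn1, an endocytic adaptor, which read 7.20 and 76.1 CPM in fibroblasts and 16.3 and 13.4 CPM in oligodendrocytes. It was -1.08 and 1.47 for Zfp949, a zinc finger gene, which read 11.3 and 149 CPM in fibroblasts and 25.0 and 52.9 CPM in oligodendrocytes. In each case the fibroblasts differed more between the plates than the oligodendrocytes did. For the 4 genes named by their plate ratio within fibroblasts this follows in part from the choice.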

How the results depend on the processing

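All counts below replace the 2921 genes called higher in fibroblasts and the 1536 called higher in oligodendrocytes, or the plate counts within fibroblasts (3590 and 2950 higher on plates Pdgfra1 and Pdgfra2) and oligodendrocytes (1314 and 1248). With the median cell in place of pooled reads, 433 genes were called higher in fibroblasts and 1030 higher in oligodendrocytes, and the plate counts were 2094 and 186 in fibroblasts and 780 and 273 in oligodendrocytes. A pseudocount of 10 CPM gave 1872 genes higher in fibroblasts, with plate counts of 1962 toward plate Pdgfra2 in fibroblasts and 526 and 425 in oligodendrocytes. No floor gave 2054 genes higher on plate Pdgfra2 in oligodendrocytes. A floor of 50 CPM, which leaves fewer genes, gave 1462 and 904 called between the groups and plate counts of 1287 and 1380 in fibroblasts and 296 and 177 in oligodendrocytes. A 4-fold threshold gave 1879 and 788 between the groups and plate counts of 2032 and 1390, and 412 and 496. Leaving out 1 plate gave 4346 to 4663 genes higher in fibroblasts and 2324 to 3301 higher in oligodendrocytes, since agreement on a second plate is then not asked for.

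The 24 genes with the largest ratios kept direction and call under all 16 alternatives. These genes were chosen by ratio, level and share of cells with a read in these same data. That they kept their calls therefore follows in part from the choice. It does not extend to all calls, since the median cell gave 433 genes higher in fibroblasts in place of 2921. The counts of cells per group and plate moved by less than 1.5 times under other rules for choosing cells. Of 2960 alternative ratios of single genes between groups, 2739 counted as the same. For a called gene this meant the same direction and call. For an uncalled gene it meant no call and a shift within the standard deviation of its 2 plates, whatever the sign. Among called genes 1 ratio changed sign: Rps18, at -0.61 with the median cell. Sign changes of uncalled genes were not counted, such as Gsn, from 0.30 to -1.71 with the median cell. Of 336 plate ratios 1 changed sign: Cxcl12 in oligodendrocytes, at -1.50 without the cell that held markers of another class. The cause was not tested for the other settings. Reads per fibroblast on plate Pdgfra2 limit what can be read as absent there. Ratios between the groups were taken within each plate, and no paired test was run.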
